A study of Mus musculus with 8 samples.

Results

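The genes described here encode proteins that coat, assemble and support the lipid droplet: the perilipins Plin1 to Plin5, the CIDE family protein Cidec, the assembly proteins Fitm2 and Bscl2, and the caveola proteins Cav1 and Cavin1. They were taken by symbol from the table of raw counts, which holds 53700 genes, and all 10 were found and passed the filter on low counts, with 18656 genes tested. RNA bound to GFP-tagged ribosomes was sequenced from mouse skin of the genotype AdipoqCreER;R26-NuTRAP, in which a tamoxifen-dependent recombinase driven by the adiponectin gene switches on a ribosome tag. Libraries came from uninjured skin (n = 3), skin 3 days after wounding (n = 2) and skin 7 days after wounding (n = 3), where the short titles were read as days post wounding. All mice, uninjured ones included, carried both alleles and had received tamoxifen. Mice were 7 to 9 weeks old, per a protocol shared by all samples, and wounded ones had 4 full-thickness punch wounds of 5 mm each. The tag marks cells in which the adiponectin promoter drove the recombinase when tamoxifen was given, and a cell keeps it if it later changes state. The labels do not say which mice, or how many, went into a library, so p-values measure the spread between libraries.

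A lipid droplet is a core of triglyceride inside a single layer of phospholipid. It buds from the endoplasmic reticulum, where seipin (the Bscl2 product) and Fitm2 shape the budding site, and perilipins then cover its surface and govern access of lipases to the core. Adipocytes of white fat merge their lipid into a single large droplet, which needs Cidec, and their plasma membrane is rich in caveolae, flask-shaped pits built from caveolin 1 and cavin 1 that take part in lipid uptake. Loss of function of BSCL2, CAV1 or CAVIN1 causes generalised lipodystrophy in humans, and of PLIN1 or CIDEC partial lipodystrophy.

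The libraries held 5308959 to 17751689 counts. All 20 adipocyte markers were measured in the pull-down, and their summed level was 113862 to 148584 CPM (counts scaled to a common library size) in uninjured libraries, 116556 to 151057 CPM at day 3 and 71322 to 158484 CPM at day 7. Cfd, Fabp4 and Car3 made up most of this sum in every library. RNA of other cell types was recovered too. Summed skeletal muscle markers were at 1063 to 1938 CPM at day 7 against 6162 to 13161 CPM in uninjured libraries (15 of 18 lower by the test used below), and endothelial markers at 151 to 638 CPM against 90.3 to 187 CPM (10 of 14 higher). Fibroblast markers were at 6511 to 12807 CPM at day 7 against 1293 to 1463 CPM in uninjured libraries (8 of 13 higher), and of 12 pericyte and vascular smooth muscle markers 7 were higher. Day 7 replicate 3 had the highest adipocyte and lowest endothelial sum of its group. Day 3 replicate 1 lay above replicate 2 in luminal epithelial markers (1512 and 153 CPM) and in brown adipocyte markers. It lay below replicate 2 in keratinocyte (1558 and 6161 CPM), fibroblast (1502 and 4648 CPM) and macrophage markers (378 and 1417 CPM). In the column headers the leading number, which reads as a date, is shared within each group and differs between groups, so whatever it marks cannot be told apart from the groups.

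In uninjured libraries the droplet genes spanned a wide range of levels once gene length was taken into account (RPKM, counts scaled to library size and exon length). Cidec, which joins droplets at their contact sites, was by far the most abundant at 2105 ± 54.2 RPKM (SD, n = 3) and ranked 25 among 18656 genes. Cav1, the main structural protein of caveolae, followed at 496 ± 26.6 RPKM and ranked 123. Plin1, the coat of the mature adipocyte droplet that holds lipases back until it is phosphorylated, was at 186 ± 3.10 RPKM, and Bscl2 at 179 ± 21.5 RPKM, with overlapping libraries, and both lay above the genes that follow. Cavin1, the cytosolic coat of caveolae, was at 135 ± 26.0 RPKM, Plin2, a perilipin found on droplets in most tissues, at 115 ± 30.7 RPKM and Fitm2 at 73.8 ± 13.1 RPKM. Plin2 overlapped with Cavin1 and with Fitm2 in its libraries. Plin4, which coats small forming droplets, was at 28.5 ± 6.74 RPKM and Plin3, a cytosolic perilipin that moves to new droplets, at 19.7 ± 2.20 RPKM, again with overlap. Plin5, the perilipin of oxidative tissues such as heart and muscle, was lowest at 10.2 ± 1.97 RPKM. Cidec, Cav1 and Plin5 were thus set apart from their neighbours, and the genes between them fell into 3 runs of overlapping levels.

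**Figure D1:**
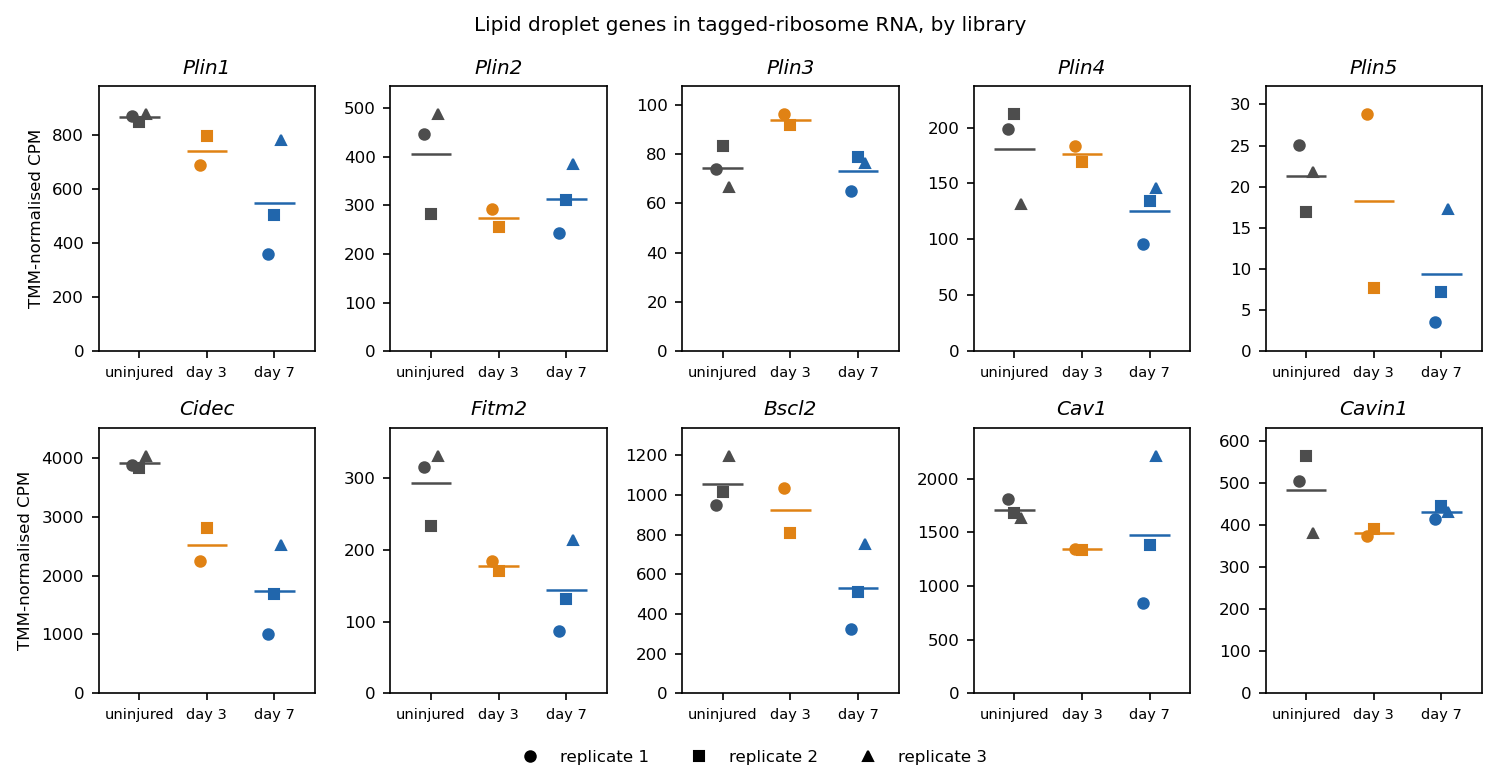
Each panel plots 1 gene, with TMM-normalised CPM on a linear vertical axis that starts at 0 and the 3 groups along the horizontal axis. Points are libraries (the marker shape gives the replicate number) and lines are group means. Cidec lay between 1011 and 2510.4 CPM at day 7, below all uninjured libraries (3829 to 4020.0 CPM), while Cavin1 at day 7 (415 to 446 CPM) lay inside the uninjured range.

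In the table, Plin1 (ENSMUSG00000030546.15) spans chromosome 7 from 79369966 to 79382651, Cidec (ENSMUSG00000030278.12) chromosome 6 from 113401595 to 113412721, Fitm2 (ENSMUSG00000048486.7) chromosome 2 from 163308299 to 163314549 and Bscl2 (ENSMUSG00000071657.13) chromosome 19 from 8814831 to 8826047. Plin4 (chromosome 17, 56407591 to 56416803) and Plin5 (56418601 to 56424596) are neighbours on the same strand, 1797 bases apart, and Plin3 lies on the same chromosome from 56584476 to 56599873. Build mm10 is named in the submitters' processing notes, but none of the 10 genes has the same start in the GRCm38 annotation. Of the 52093 identifiers found there, 1491 do. The coordinates thus do not match that annotation, and which build they follow is not settled. They cannot be set beside the GRCm38 promoter positions given below. Bscl2 shares 398 exonic bases with Gng3 on the opposite strand, and Gng3 held 148 counts over the 8 libraries against 59889 for Bscl2. Fitm2 shares 227 exonic bases with 2310001K24Rik (164 counts against 15123 for Fitm2), also on opposite strands. Plin4 shares 17 with Hdgfl2 on the opposite strand (2444 counts against 11985 for Plin4).

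RefSeq promoters (GRCm38.p6) were available for all 10 genes, at 16 start sites. The 250 bases before the start are printed for Plin1, Cidec, Fitm2 and Bscl2, the genes whose day 7 libraries all lay below the uninjured ones, with 2 start sites for Cidec and the most upstream of 3 for Bscl2. They run from chr7:79732777-79733026 (minus strand) for Plin1, chr6:113435761-113436010 and chr6:113434765-113435014 (minus) for Cidec, chr2:163472630-163472879 (minus) for Fitm2 and chr19:8837217-8837466 (plus) for Bscl2. Capitals mark matches, on either strand, to the C/EBP motif TTGCNNAA, the promoter element CCAAT, the GC box written GGGCGG, the TATA element TATAAA or the nuclear receptor core AGGTCA. The E-box written CACGTG, the sterol element written TCACNCCAC and a direct repeat of the receptor core with 1 free base between its copies, which PPAR binds with RXR, were searched too.
Plin1: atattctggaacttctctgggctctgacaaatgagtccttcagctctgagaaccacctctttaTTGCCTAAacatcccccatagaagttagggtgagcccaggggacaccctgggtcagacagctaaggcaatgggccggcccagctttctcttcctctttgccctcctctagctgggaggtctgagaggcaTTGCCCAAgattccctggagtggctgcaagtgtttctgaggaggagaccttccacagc
Cidec upstream start: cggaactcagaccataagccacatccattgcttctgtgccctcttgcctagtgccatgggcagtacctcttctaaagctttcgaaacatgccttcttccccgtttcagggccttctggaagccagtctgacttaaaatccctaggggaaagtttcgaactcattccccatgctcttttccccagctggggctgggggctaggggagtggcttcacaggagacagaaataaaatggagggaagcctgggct
Cidec downstream start: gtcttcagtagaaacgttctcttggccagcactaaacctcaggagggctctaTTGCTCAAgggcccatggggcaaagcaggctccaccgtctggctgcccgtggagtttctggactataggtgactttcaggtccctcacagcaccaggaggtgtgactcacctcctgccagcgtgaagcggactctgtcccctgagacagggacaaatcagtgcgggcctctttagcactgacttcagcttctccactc
Fitm2: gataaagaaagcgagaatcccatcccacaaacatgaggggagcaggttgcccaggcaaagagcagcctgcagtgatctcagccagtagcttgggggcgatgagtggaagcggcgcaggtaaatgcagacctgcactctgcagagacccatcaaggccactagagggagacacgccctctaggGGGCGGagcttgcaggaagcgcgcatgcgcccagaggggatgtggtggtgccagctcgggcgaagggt
Bscl2: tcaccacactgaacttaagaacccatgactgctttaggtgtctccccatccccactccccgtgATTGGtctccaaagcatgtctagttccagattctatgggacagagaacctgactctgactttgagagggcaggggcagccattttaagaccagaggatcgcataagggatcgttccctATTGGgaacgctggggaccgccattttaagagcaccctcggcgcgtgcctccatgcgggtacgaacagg
Plin1 held 2 matches to the C/EBP motif, at 187 and 58 bases before the start, and the downstream start of Cidec held 1. No other start site of the 10 genes held it, against 9.56% of 32851 mouse promoters of the same length that do. A stretch of bases just after that downstream Cidec start matched no annotated transcript of the gene, unlike those after every other start site. Fitm2 held a GC box (32.7% of promoters do) and the most upstream start of Bscl2 a pair of CCAAT elements (33.8% hold at least 1). Over the 10 genes, 5 held a GC box (also Plin3, Plin5, Cav1 and Cavin1) and 6 a CCAAT element (also Plin2 to Plin5 and Cavin1). The receptor core was matched before another start of Bscl2 and before Plin2 and Plin5 (14.0% of promoters hold it), and the TATA element before Cav1 (12.4%). The 4 genes shared no motif of this set. No start site of the 10 genes held the direct repeat (0.0335% of promoters do, or 0.338% where the fourth base of each copy is free), the E-box (6.02%) or the sterol element (1.05%). A match describes letters only, and the windows do not reach distal sites.

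At day 7 against uninjured skin, the droplet genes with the largest mean differences were Plin5 (2.27-fold lower, on few counts and with overlapping libraries), Cidec (2.25-fold), Fitm2 (2.03-fold) and Bscl2 (1.99-fold), whereas Plin3, Cav1 and Cavin1 differed little on average. None of the 10 genes passed the test (edgeR quasi-likelihood, Benjamini-Hochberg adjusted p under 0.05 over all genes). The coat of the mature droplet, Plin1, was at 359, 504 and 782 CPM in day 7 libraries, against 871, 849 and 876 CPM in uninjured libraries. All day 7 libraries lay below the uninjured ones, though replicate 3 came close. The log2 fold change was -0.66 ± 0.29 (SE, adjusted p = 0.181).

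Plin2 was at 242, 311 and 385 CPM at day 7, against 447, 283 and 486 CPM in uninjured libraries. The groups overlapped, since uninjured replicate 2 was low (log2 -0.37 ± 0.27, adjusted p = 0.391). Macrophages and luminal epithelium also make Plin2, and summed macrophage markers were at 645 to 1443 CPM at day 7 against 175 to 391 CPM in uninjured libraries. Luminal epithelial markers were at 646 to 1311 CPM against 130 to 157 CPM, and sebaceous gland markers at 176 to 211 CPM against 143 to 310 CPM. The part of any of these cell types in the Plin2 level was not tested. Plin3 was at 65.0, 78.7 and 76.2 CPM at day 7 and 73.8, 83.2 and 66.6 CPM in uninjured libraries, with a log2 difference of -0.02 whose 95% interval ran from -0.45 to 0.40.

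Plin4 was at 95.8, 135 and 146 CPM at day 7, against 198, 212 and 132 CPM in uninjured libraries, with overlap through uninjured replicate 3 (log2 -0.52 ± 0.25, adjusted p = 0.204). Plin5 was at 3.62, 7.28 and 17.2 CPM at day 7, against 25.1, 17.0 and 21.8 CPM in uninjured libraries. Day 7 replicates 1 and 2 lay far below, on 32 and 78 raw counts, and replicate 3 reached the lowest uninjured library (log2 -1.18 ± 0.56, adjusted p = 0.201). Plin5 is also made in muscle, and skeletal muscle markers were lower in all day 7 libraries than in the uninjured ones. The part of muscle RNA in the Plin5 level was not tested.

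Cidec was at 1011, 1691 and 2510.4 CPM at day 7, against 3869, 3829 and 4020.0 CPM in uninjured libraries. Its uninjured libraries lay close together and every day 7 library lay well below them. The log2 fold change was -1.17 ± 0.35 (95% interval -1.95 to -0.39, adjusted p = 0.0675). Fitm2, the endoplasmic reticulum protein that passes triglyceride into the budding droplet, was at 86.4, 131 and 214 CPM at day 7, against 315, 233 and 329.9 CPM in uninjured libraries. Here too the groups did not overlap (log2 -1.03 ± 0.31, adjusted p = 0.0686). Bscl2 was at 325, 509 and 755 CPM at day 7, against 951, 1015 and 1195 CPM in uninjured libraries, a difference of -0.99 ± 0.32 on the log2 scale (adjusted p = 0.0798). All 3 genes were lowest in replicate 1 and highest in replicate 3.

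Cav1 was at 844, 1380.3 and 2208 CPM at day 7, against 1809.7, 1677 and 1634 CPM in uninjured libraries. Day 7 libraries thus lay on both sides of the uninjured ones, with replicate 3 the highest of all 8 libraries (log2 -0.21 ± 0.34, 95% interval -0.95 to 0.54, adjusted p = 0.717). Cavin1 hardly varied within day 7, at 415, 446 and 430.5 CPM, against 505, 564 and 381 CPM in uninjured libraries (log2 -0.17 ± 0.23, adjusted p = 0.662). Endothelium is also rich in caveolae, and the endothelial sum in day 7 replicates 1, 2 and 3 was 638, 603 and 151 CPM. Fibroblast markers were higher at day 7 as well (6511 to 12807 CPM against 1293 to 1463 CPM in uninjured libraries). The part of RNA from endothelium or other cell types in either level was not tested. In bulk RNA fewer cells and less RNA per cell cannot be told apart.

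Of the 10 genes, 0 rose and 0 fell at day 7, against 7.67% of all genes tested that passed (1431 of 18656). At an unadjusted p under 0.05 there were 4 (Plin1, Cidec, Fitm2 and Bscl2), against 26.7% of all genes. These 4 genes were also lower without overlap between libraries, a pattern seen in 13.5% of all genes, and none was higher without overlap (16.7% of all genes). All 10 fold changes were negative, against 47.9% of all genes, but scaled to the summed adipocyte markers Plin2, Plin3, Cav1 and Cavin1 turned positive (0.02, 0.43, 0.09 and 0.30), Plin3 also turned at a minimum count of 30, in a fit of only the 2 groups and without day 7 replicate 1 or uninjured replicate 2, and Cav1 without day 7 replicate 1. The median log2 fold change of the 10 was -0.59, beside 0.04 over all genes. Without day 7 replicate 3, Plin1, Plin5, Cidec, Fitm2 and Bscl2 passed (log2 -1, -1.95, -1.53, -1.43 and -1.34, highest adjusted p = 0.0325), in a fit that called 4055 genes in all. DESeq2 called Cidec, Fitm2 and Bscl2 among 2602 genes in all, and edgeR without the filter on low counts called these and Plin5 among 3156. Genes were filtered anew where a library was left out, and without the filter every gene with a count was tested. The total of 18656 thus need not hold for those fits. Shares of all genes called were not computed for these alternatives, so their calls have no background rate beside them.

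**Figure D2:**
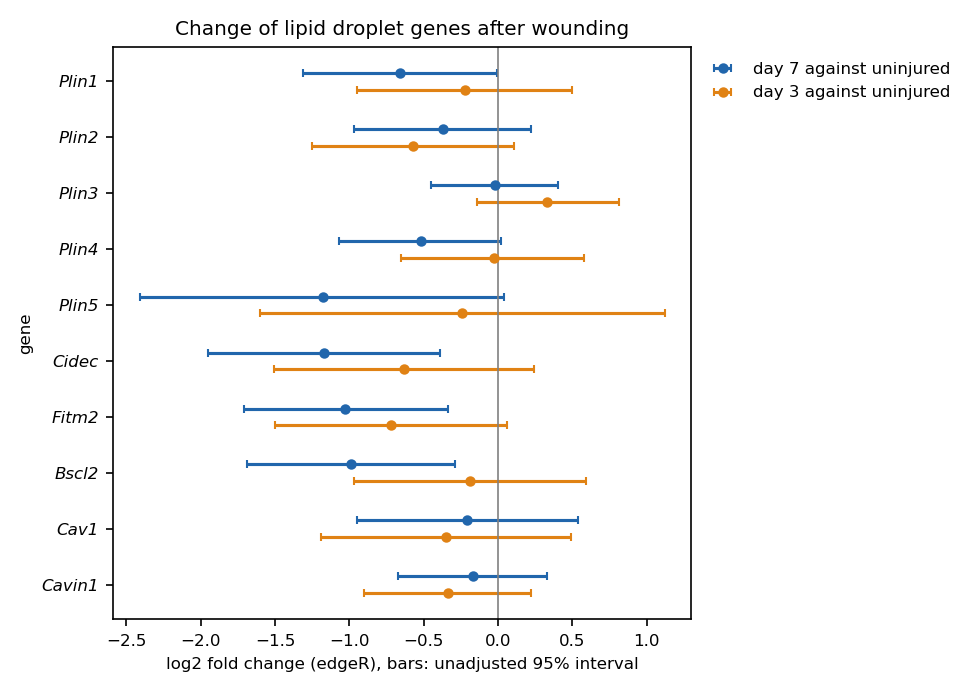
Log2 fold changes from edgeR (horizontal axis) for each gene (vertical axis) at day 7 and at day 3, each against uninjured libraries, with unadjusted 95% intervals as bars. At day 7 the intervals of Plin1, Cidec, Fitm2 and Bscl2 lay below 0, and at day 3 every interval included 0. Both contrasts share the uninjured libraries.

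Within day 7 most droplet genes varied together. In 8 of the 10 genes (80%) the level was lowest in replicate 1, between in replicate 2 and highest in replicate 3, an order found in 27.2% of all genes tested. Replicate 3 exceeded replicate 1 by 4.76-fold for Plin5, 2.62-fold for Cav1, 2.48-fold for Cidec and for Fitm2, 2.33-fold for Bscl2 and 2.18-fold for Plin1. Plin3 (1.17-fold) and Cavin1 (1.04-fold) were the exceptions in this order. The TMM scaling factors, 1.31 for replicate 1 and 0.948 for replicate 3, raise all these ratios. The summed adipocyte markers had the same order, at 71322, 88041 and 158484 CPM, as did the hormone gene Adipoq (1803, 2789 and 5177 CPM).

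At day 3 against uninjured skin, Cidec, Fitm2, Plin1 and Cav1 lay lower in both libraries than in any uninjured one and Plin3 lay higher, and none of the 10 genes passed the test. Cidec was at 2238 and 2804 CPM at day 3, against 3829 to 4020.0 CPM in uninjured libraries (log2 -0.63 ± 0.40, adjusted p = 0.516). Fitm2 was at 185 and 170.4 CPM, against 233 to 329.9 CPM (log2 -0.72 ± 0.35, adjusted p = 0.417). Plin1 lay at 688 and 796 CPM, against 849 to 876 CPM, and Cav1 at 1347 and 1340.0 CPM, against 1634 to 1809.7 CPM. The groups did not overlap for these 4 genes, yet each interval of the difference included 0. Plin3 was at 96.0 and 91.7 CPM, against 66.6 to 83.2 CPM in uninjured libraries (log2 0.33 ± 0.22, adjusted p = 0.530).

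The remaining genes overlapped with the uninjured libraries at day 3. Plin2 was at 293 and 255 CPM, against 283 to 486 CPM (log2 -0.57 ± 0.31, adjusted p = 0.460), and Plin4 at 184 and 169 CPM, against 132 to 212 CPM. Bscl2 was at 1036 and 811 CPM, against 951 to 1195 CPM, and Cavin1 at 373 and 390.4 CPM, against 381 to 564 CPM. Plin5 split the day 3 libraries, at 28.8 CPM in replicate 1 and 7.70 CPM in replicate 2 (140 and 72 raw counts). Of 8 tested marker genes of brown fat, which is rich in Plin5, 6 were higher in replicate 1 and 2 (Elovl3 and Zic1) were lower. Cox8b was at 956 and 212 CPM and the CIDE family gene Cidea at 37.2 and 7.59 CPM in day 3 replicates 1 and 2, and the uncoupling protein gene Ucp1, below the filter, had 27 and 0 raw counts there and at most 2 in any other library. Summed brown adipocyte markers were at 1131 and 276 CPM, against 283 to 577 CPM in uninjured libraries, with Cox8b the bulk of the sum, and their part in the Plin5 level was not tested. Without day 3 replicate 2 the Plin5 difference from uninjured libraries was 0.42, and without replicate 1 it was -1.47.

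At day 3, 0 of the 10 genes passed in edgeR and 0 in DESeq2, and 0 had an unadjusted p under 0.05, against 0.0107% of all genes that passed (2 of 18656) and 13.0% with such an unadjusted p. Lower without overlap were 4 of 10, against 17.2% of all genes, and higher without overlap was Plin3, against 16.9%. Fold changes were negative in 9 of 10, against 48.9% of all genes, though upper-quartile scaling, a minimum count of 30 or leaving out a library could turn Plin4 positive, a replicate block Bscl2 and leaving out day 3 replicate 2 Plin5. The median log2 fold change of the 10 was -0.29, beside 0.02 over all genes. With 2 libraries at day 3, the intervals were wide, and for Cidec ran from -1.51 to 0.24.

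Between day 7 and day 3 the median log2 fold change of the 10 genes was -0.40, beside 0.08 over all genes, and 0 of the 10 passed in edgeR or DESeq2, against 0.0858% of all genes in edgeR (16 of 18656, with 0.0643% higher and 0.0214% lower). Bscl2 had an unadjusted p under 0.05 (11.0% of all genes did), at 325 to 755 CPM at day 7 against 811 and 1036 CPM at day 3 (log2 -0.80 ± 0.35, adjusted p = 0.434). Plin3 (65.0 to 78.7 against 91.7 and 96.0 CPM) and Plin4 (95.8 to 146 against 169 and 184 CPM) were also lower at day 7 without overlap. Lower without overlap were thus 3 of 10, against 11.4% of all genes, and Cavin1 was higher (415 to 446 against 373 and 390.4 CPM), against 14.2%. Cidec (1011 to 2510.4 against 2238 and 2804 CPM), Fitm2 (86.4 to 214 against 170.4 and 185 CPM) and Plin1 (359 to 782 against 688 and 796 CPM) overlapped. Fold changes were negative in 7 of 10, against 44.6% of all genes, though adipocyte-marker scaling turned Plin3 and Fitm2 positive leaving out day 3 replicate 1 turned Plin5 positive, and the replicate block or leaving out day 7 replicate 3 turned Cav1 negative.

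Ratios between droplet genes do not depend on how libraries are scaled, and they were examined once the levels were known, as a description. Cidec exceeded Plin1 per unit of length by 7.05, 8.41 and 8.04 times in day 7 libraries, against 11.1, 11.3 and 11.5 times in uninjured libraries. At day 3 the ratio was 8.15 and 8.82, against the same uninjured values. All 5 wounded libraries thus lay below all 3 uninjured ones, and day 7 replicate 3, which was close to uninjured in the level of Plin1, lay with the other wounded libraries in this ratio. The ratio of Cav1 to Plin1 was 3.17, 3.70 and 3.81 at day 7, against 2.81, 2.67 and 2.52 in uninjured libraries, without overlap. At day 3 it was 2.64 and 2.27, within or below the uninjured values. The ratio of Cavin1 to Cav1, the proteins that build the caveola together, was 0.472, 0.311 and 0.187 in day 7 replicates 1, 2 and 3, against 0.224 to 0.323 in uninjured libraries, so that its day 7 range enclosed the uninjured one. Of the 9 ratios computed, those of Bscl2 and Fitm2 to Plin1 also did not overlap at day 7. That of Bscl2 was 0.713, 0.797 and 0.761, against 0.861, 0.942 and 1.08 in uninjured libraries, and 1.19 and 0.803 at day 3. The ratio of Fitm2 to Plin1 was 0.282, 0.305 and 0.321 at day 7, against 0.424, 0.322 and 0.441 in uninjured libraries, which nearly touched. At day 3 it was 0.315 and 0.251, also below the uninjured values. The ratio of Plin3 to Plin1 overlapped at day 7 but not at day 3, at 0.171 and 0.141 against 0.104, 0.12 and 0.0933 in uninjured libraries. The ratios that separated all have Plin1 as denominator, so they are not independent of each other. How often such ratios separate over all genes was not counted.

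**Figure D3:**
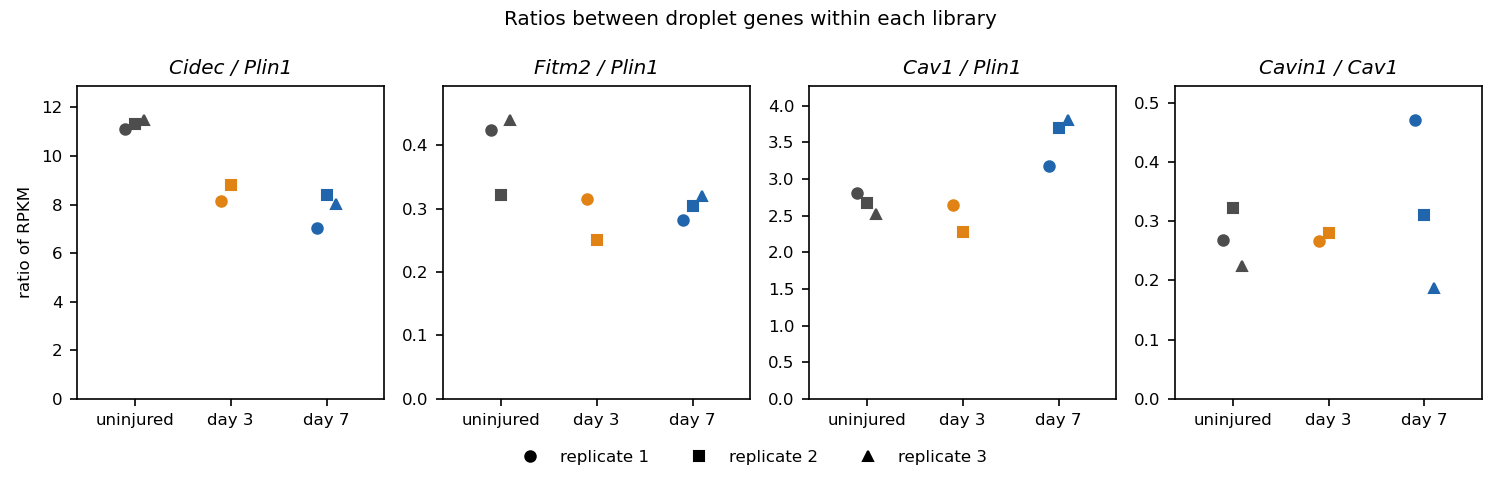
Ratios of RPKM between pairs of droplet genes in each library (vertical axes start at 0), by group, with marker shape for the replicate number. The Cidec to Plin1 ratio was 7.05 to 8.82 in the 5 wounded libraries and 11.1 to 11.5 in the 3 uninjured ones.

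Among the 5 perilipins, Plin1 and Plin2 made up most of the RNA per unit of length in every library. Plin1 held 42.8%, 44.7% and 51.1% of the summed perilipin RPKM at day 7, against 49.6%, 55.9% and 50.2% in uninjured libraries. Plin2 held 38.3%, 36.5% and 33.3% at day 7, against 33.7%, 24.7% and 36.9%. Both overlapped between the groups. Plin3 held 9.53%, 8.57% and 6.11% at day 7, against 5.17%, 6.73% and 4.68%, and at day 3 it held 8.47% and 8.12%, above every uninjured library. Plin4 stayed between 5.53% and 10.2% over the 8 libraries, and Plin5 between 0.964% and 4.61%.

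**Figure D4:**
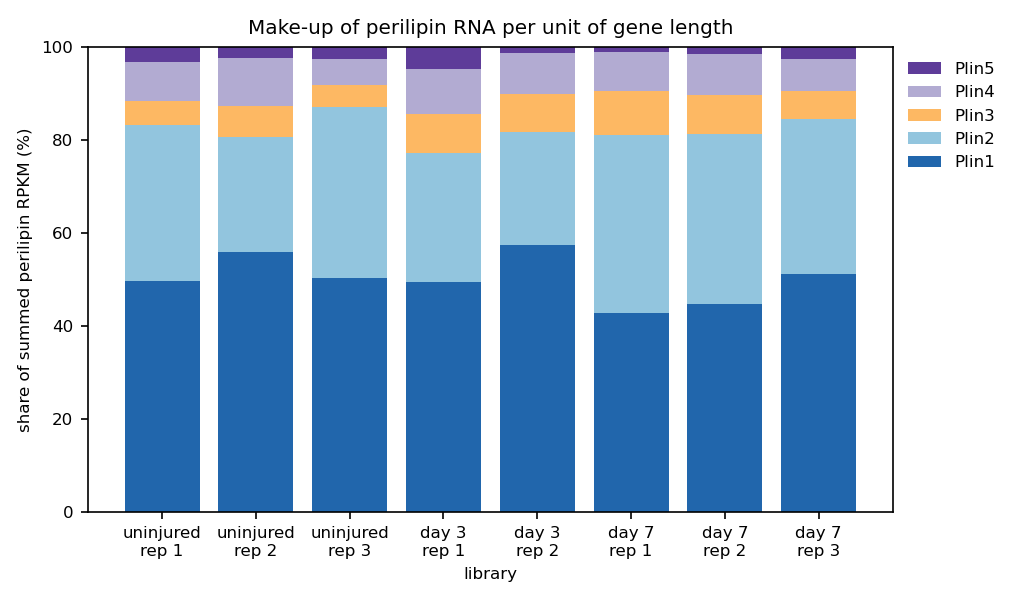
Share of each perilipin in the summed perilipin RPKM (vertical axis, percent) for each of the 8 libraries (horizontal axis). Plin1 and Plin2 together make up most of each bar, and Plin1 ranged from 42.8% in day 7 replicate 1 to 57.4% in day 3 replicate 2.

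Other genes of lipid storage were set beside these, from lists chosen for the droplet and its lipid. At day 7 against uninjured, 0 of 10 tested genes of droplet lipolysis rose and 1 fell, with a median log2 fold change of -0.47 (0.04 over all genes). It was Pnpla2, the first triglyceride lipase, at 371, 758 and 1266 CPM at day 7, against 2398, 2030 and 2631 CPM in uninjured libraries (log2 -1.56 ± 0.40, edgeR adjusted p = 0.0397). Lipe, the hormone-sensitive lipase that docks on phosphorylated Plin1, was at 475 ± 121 and 684 ± 93.8 CPM (adjusted p = 0.215), while Abhd5, the lipase activator that Plin1 holds, at 150 ± 58.7 and 214 ± 14.6 CPM (adjusted p = 0.277). Among 17 genes of triglyceride assembly 0 rose and 1 fell, with a median of -0.08. It was Acsl5, which activates fatty acids (log2 -1.03 ± 0.25, adjusted p = 0.0345). Dgat2, which makes the final triglyceride bond, was at 2173 ± 1116 CPM at day 7 and 3024 ± 782 CPM in uninjured libraries and did not pass (adjusted p = 0.448).

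Among 19 other droplet surface and biogenesis genes 0 rose and 1 fell, with a median of -0.42, and 17 had a negative fold change. It was Fitm1, the paralogue of Fitm2 that mouse skeletal muscle makes, at 3.17, 5.23 and 5.27 CPM at day 7 against 36.8, 22.4 and 12.1 CPM in uninjured libraries (log2 -2.38 ± 0.41, adjusted p = 0.00920). Among 13 further caveola genes 0 rose and 2 fell, with a median of -0.31. They were Cav3 and Cavin4, the muscle forms of caveolin and cavin (log2 -2.29 ± 0.47 and -1.69 ± 0.37, adjusted p = 0.0182 and 0.0231). Skeletal muscle markers fell with these 3 genes, 15 of 18 at a median of -2.43, and their part was not tested. Cav2, the partner of caveolin 1, followed Cav1 in its order over day 7 replicates, at 330, 528 and 930 CPM, against 529 to 708 CPM in uninjured libraries (adjusted p = 0.845).

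Of 19 tested PPAR targets, genes of the receptor family that controls perilipins, 1 rose and 1 fell at day 7, and the median log2 fold change was 0.04. The fall was that of Fabp3, the fatty acid binding protein of muscle, at 3.03 ± 0.668 CPM at day 7 against 22.5 ± 15.9 CPM in uninjured libraries (log2 -2.89 ± 0.50, edgeR adjusted p = 0.00976). Of 20 adipocyte markers 0 passed in edgeR, with a median of -0.56 beside -0.59 for the 10 droplet genes, while 5 had an unadjusted p under 0.05 and DESeq2 called 1. Over all genes 5.90% rose and 1.77% fell in this contrast. At day 3 against uninjured and between day 7 and day 3, 0 genes of these 6 lists passed in edgeR, with at most 4 of a list at an unadjusted p under 0.05. DESeq2 called 1 of the other droplet genes and 1 PPAR target at day 3, and 1 of the other droplet genes between day 7 and day 3.

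As a description over the 8 libraries, the genes whose log2 CPM followed Plin1 most closely among 6541 genes of at least 20 CPM on average were Ginm1 (Pearson r = 0.991, Spearman rho = 0.929), Bnip3l-ps (r = 0.990, rho = 0.905) and Lyplal1 (r = 0.988, rho = 0.881). For Plin2 they were Ccdc47 (r = 0.985, rho = 0.929), Rps6kb1 (r = 0.982, rho = 1.00) and Smo (r = 0.982, rho = 0.976). For Cav1 they were Ube2n (r = 0.988, rho = 0.905), Cyp2j6 (r = 0.978, rho = 0.905) and Lgals12, a galectin of adipocyte droplets (r = 0.969, rho = 0.881). The libraries fall into 3 groups and were the same for all genes, so these values carry no test. Ginm1, for instance, was at 275, 387 and 594 CPM at day 7, against 647, 584 and 675 CPM in uninjured libraries, with the same order as Plin1 within day 7.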

How the data were processed

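The deposited table holds raw gene counts for 8 libraries of RNA from tagged ribosomes, 1 column each. The authors made it with featureCounts 2.0.8, per the file headers. The submitters' processing notes also list STAR 2.7.10b, DESeq2 and mm10. How strand and multiply matching reads were handled is not given in the sources used here. Symbols came from the GRCm38 annotation, which held 52093 of 53700 identifiers.

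Library sizes were scaled by TMM, and counts were tested, two-sided, with edgeR 4.0.16 in R 4.3.3 (quasi-likelihood, 1 mean per group over all 8 libraries, 5 residual degrees of freedom, expression filter at a minimum count of 10, Benjamini-Hochberg over 18656 genes). The standard error is the log2 fold change divided by the root of F. CPM are TMM-normalised, and RPKM also use the exon length in the deposited table. The procedure was also run on simulated data, with planted changes larger than any seen for the 10 genes. That run does not cover differences of their size. Depth limits low genes most, Plin5 above all.

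The 10 genes and all lists were chosen with earlier results of these data known. All 10 are named in each contrast, and of each other list up to 4 genes that passed. For Plin1, Plin2 and Cav1 the 3 genes of closest pattern are named. Lipe, Abhd5, Dgat2, Cav2, Adipoq, the brown fat genes and the ratios were chosen after their values were seen. Lists were described by counts and medians. Alternatives were 2 other scalings, DESeq2 1.42.0, 2 other filters, a fit of only the 2 groups, a replicate block, a robust fit, leaving out each library, and, added after seeing the data, scaling to adipocyte markers. That last scaling rests mostly on Cfd, Fabp4 and Car3, which dominate the sum. Replicate libraries differed beyond counting noise (chi-square per gene 24.0 to 65.2), so none was counted as a duplicate. Proteins were not printed because no protein table was at hand, and motif searches covered both strands of RefSeq promoters. A result for 1 gene of the PPAR target list is not reported here.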

Additional observations from a re-analysis of the deposited data

How the results depend on the processing

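Of the 10 droplet genes, 0 passed at day 7 against uninjured skin in edgeR, and also 0 with DESeq2 size factors, with upper-quartile scaling, at a minimum count of 30, with only the 2 groups or in a robust fit. DESeq2 called 3 (of 2602 genes called in all), edgeR without the filter 4 (of 3156), the fit with a replicate block 3 (of 2131) and the scaling to adipocyte markers 1 (of 1187; Cidec, log2 -0.84, adjusted p = 0.0433). Leaving out a library gave 0 to 5, with 5 only without day 7 replicate 3 (of 4055). Shares of all genes tested were not computed for these alternatives. In the other 2 contrasts 0 passed under every alternative run. Deviations from group means correlated at -0.06 to 0.19 between same-numbered libraries and at -0.22 to 0.20 between the others. Groups this small constrain such values, so whether the numbers pair the libraries is not settled. The replicate block called Cidec, Fitm2 and Bscl2 at day 7 (highest adjusted p = 0.0371) and moved the count of all genes called from 1431 to 2131.

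Signs turned for small differences and, without 1 day 3 library, for Plin5. At day 7 against uninjured, Plin3 was at 0.01 at a minimum count of 30 and with only the 2 groups, and with adipocyte-marker scaling Plin2, Plin3, Cav1 and Cavin1 were at 0.02, 0.43, 0.09 and 0.30. That scaling moved the median of all genes from 0.04 to 0.52, so these 4 still lay below it. At day 3, Plin4 was at 0.08 with upper-quartile scaling and 0.00 at a minimum count of 30, and Bscl2 at 0.01 with the block. At day 7 against day 3, Cav1 was at -0.10 with the block, and Plin3 and Fitm2 at 0.10 and 0.01 with adipocyte-marker scaling (median of all genes 0.55). Without a library, Plin3 and Cav1 ranged from -0.10 to 0.06 and from -0.62 to 0.07 at day 7, Plin4 and Plin5 from -0.22 to 0.10 and from -1.47 to 0.42 at day 3, and Cav1 and Plin5 from -0.27 to 0.39 and from -1.71 to 0.28 between day 7 and day 3. Where day 3 keeps 1 library, it is assumed to vary like the other groups. The causes were not tested.

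The background moved more. All genes called at day 7 numbered 1431 (1101 higher and 330 lower), 2602 with DESeq2, 3156 without the filter and 314 to 4055 without a library, and with adipocyte-marker scaling 1098 were higher and 89 lower. At day 3 the 2 calls became 430 with DESeq2, 926 without the filter, 7 with the block, 4 with adipocyte-marker scaling, 0 at a minimum count of 30, with only the 2 groups or in the robust fit, and 0 to 150 without a library. Between day 7 and day 3 the 16 calls (12 higher and 4 lower) became 225, 572 and 126 with DESeq2, no filter and the block, 26 with upper-quartile scaling (15 higher and 11 lower), 8 with adipocyte-marker scaling (7 higher and 1 lower) and 5 to 34 without a library.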
